A study of Arabidopsis thaliana with 24 samples.

Results

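The early response of Arabidopsis leaves to the bacterial peptide elf18 was set against their response to salicylic acid (SA), in wild type plants. The comparison was chosen by label, as all wild type arrays of the series, 12 of 24. Treated groups were leaves infiltrated with 10 µM elf18 and sampled after 2 h, and plants sprayed with 1 mM SA and sampled after 6 h. Their controls were wild type leaves infiltrated with water for 2 h and wild type plants sprayed with water for 6 h. The corresponding 4 groups of the tbf1 mutant, treated in the same way, were used to set the genotypes side by side. They also entered the fit, where all 24 arrays share 1 spread per probe set, on which the wild type calls rest. All plants were 3 weeks old, raised on soil (22 °C, 16 h light, 8 h dark), wild type was Columbia-0, and mature leaves were taken. Each group had 3 Affymetrix ATH1 arrays, labelled biological replicates. Nothing else says how separate their plants were, and p-values therefore reflect only how these arrays vary, which may be technical. The agent, the route and the time all differ between the 2 responses and cannot be told apart.

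elf18 is the first stretch of bacterial elongation factor Tu, which plant cells perceive at their surface through the receptor kinase EFR and answer with pattern-triggered immunity, within minutes to hours. SA is the plant hormone of defence against biotrophic pathogens, which acts through the NPR proteins and TGA transcription factors and, with TBF1, raises genes of protein folding and secretion in the endoplasmic reticulum. Pattern perception also leads to SA synthesis at later times, so the 2 signals share a route, and the question of the comparison is which genes move with both and which with one.

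Values are RMA log2 expression values, from each of which the median of its probe set over the 24 arrays had been taken off, so that 0 is that median and no level above background is given. Changes are differences of group means on this log2 scale, tested with limma over 22746 probe sets and called at a Benjamini-Hochberg adjusted p below 0.05. Of these, 13513 had 1 gene name, and the classic reporters of both pathways were mostly among the unnamed ones. In this bulk tissue fewer cells of a type and less RNA per cell cannot be told apart. Of 26 leaf cell type markers 4 were measured. The guard cell gene GC1 (AT1G22690) stood 0.68 higher after elf18 than after water and 0.75 lower (-0.75) after SA than after water. FAMA (FMA here), the regulator of guard cell identity, was at -0.16 and -0.19, neither called. RCA, Rubisco activase of mesophyll chloroplasts, fell by 1.20 with elf18 and was at -0.09 with SA. SWEET11, a sucrose transporter of phloem parenchyma, was at -1.35 and 0.46. The part of cell type shares in the results below was not tested.

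RNA quality moved with elf18. An index was taken from control probe sets at both ends of actin, GAPDH and ubiquitin transcripts, as the 5′ minus the 3′ value, which is lower where transcripts are shorter at the 5′ end. It averaged -0.985 ± 0.159 after elf18 and 0.307 ± 0.0038 after water infiltration (SD, n = 3 each). It averaged 0.483 ± 0.195 after SA and 0.779 ± 0.0795 after water spray (SD, n = 3 each). The groups did not overlap in either pair, with an exact two-sided permutation p of 0.1 each, the smallest that 3 against 3 arrays allow. Spike-in control probe sets stood 1.49 higher after elf18 than after water infiltration, and 0.157 higher after SA than after water spray. The arrays of the elf18 group also varied most, with a mean SD over probe sets of 0.205, against 0.117 to 0.123 in the other wild type groups. Beyond a fit with the index as a covariate, the part of these differences in the results was not tested. That fit keeps the group means, so its index slope rests on how arrays of the same group differ. A call can be lost in it through lower precision as well as through a smaller change.

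In the values as deposited elf18 moved more probe sets than SA did, and across probe sets the responses were nearly uncorrelated. With elf18 13221 probe sets were called, 58.1% of those tested, with 7105 higher and 6116 lower (31.2% and 26.9%), although with each array centred on its median 5757 were higher and 6565 lower. With SA 7274 were called, 32%, with 3446 higher and 3828 lower (15.1% and 16.8%). The responses themselves differed for 11001 probe sets, 48.4%, with 5442 higher for elf18 and 5559 lower (23.9% and 24.4%). The 3 counts with the index as a covariate were 3774, 6935 and 5844, so in that fit SA had more calls than elf18. Over all probe sets the median change was 0.13 with elf18 and -0.02 with SA. Across the 22746 probe sets, which are not independent replicates, the elf18 and SA changes had a Pearson correlation of 0.046 and a Spearman correlation of 0.019. These responses share no array. Between single treated arrays the Pearson value ran from 0.031 to 0.060. It was -0.046 after quantile normalization and 0.235 with the index as a covariate.

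Probe sets were sorted by both calls. Both treatments raised 849 (3.73% of those tested) and lowered 1840 (8.09%). Another 1004 (4.41%) rose with elf18 and fell with SA, and 1436 (6.31%) fell with elf18 and rose with SA. A probe set was counted as moved by one treatment only where the other response was not called and the difference between the responses was. By that rule 3129 (13.8%) rose and 2234 (9.82%) fell with elf18 only, and 880 (3.87%) rose and 689 (3.03%) fell with SA only. Neither response was called for 7380. The remaining 2729 called for elf18 alone and 576 called for SA alone had no called difference, and were put in no class. Of the 5129 called for both, 2689 (52.4%) moved the same way and 2440 (47.6%) moved in opposite directions. Where both moved the same way, the size differed in 1316 (48.9%), close to the 48.4% of all probe sets with a called difference.

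**Figure D1:**
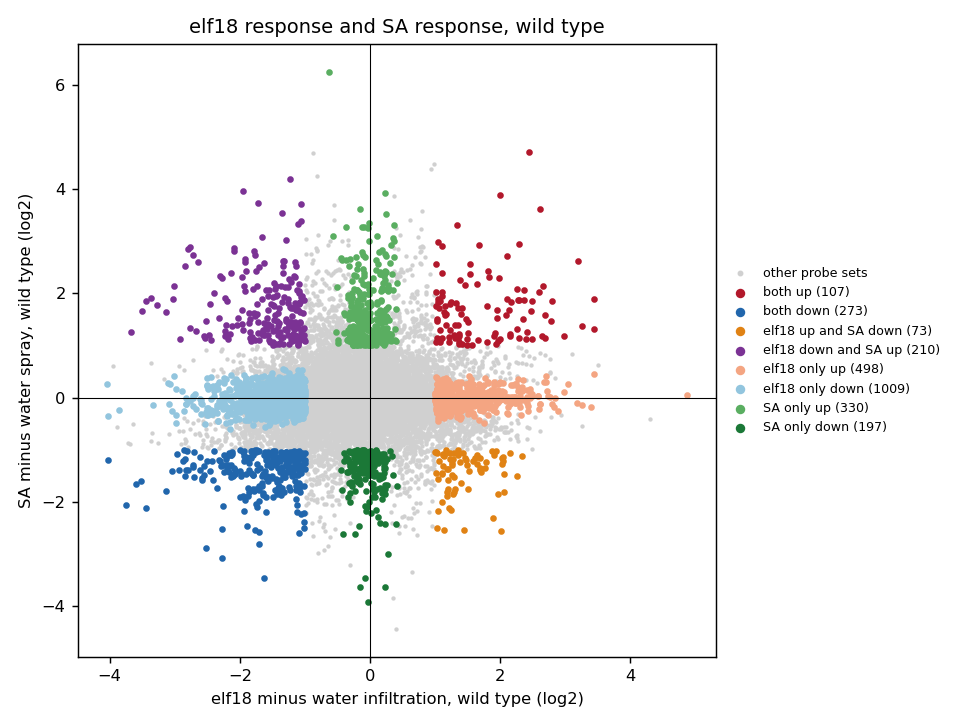
The log2 change with elf18 (horizontal axis) and with SA (vertical axis) in wild type for every probe set tested, with probe sets of the 8 response classes coloured where each called change was at least 1 on the log2 scale (2-fold). The counts in the legend run from 73 probe sets that rose with elf18 and fell with SA to 1009 that fell with elf18 only, and grey points are all other probe sets.

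More of the genes that rose with SA fell than rose with elf18, in the values as deposited. Of the 3446 probe sets raised by SA, elf18 raised 849 (24.6%) and lowered 1436 (41.7%), beside 31.2% and 26.9% of all probe sets. Of the 3828 lowered by SA, elf18 raised 1004 (26.2%) and lowered 1840 (48.1%). Where both changes had to reach 2-fold, elf18 lowered 19.0% of the 1104 raised by SA and raised 9.7% of them, beside 10.6% and 5.26% of all probe sets. Both shares were thus above those of all probe sets, where falls also outnumbered rises. Among probe sets raised by SA, no excess of falls in particular was therefore seen at 2-fold. At that size SA raised 4.85% and lowered 4.04% of those tested. Without a size limit the direction turned with the index as a covariate, where elf18 raised 480 (14.4%) and lowered 233 (7.0%) of the 3325 probe sets raised by SA. In that fit it also lowered 839 (23.2%) and raised 378 (10.5%) of the 3610 lowered by SA, beside 7.9% raised and 8.7% lowered of all. Without a size limit, falls with elf18 were thus in excess among probe sets lowered by SA in both fits. Among probe sets raised by SA they were so only without the covariate. Since the index differs between the elf18 and water groups themselves, the covariate fit cannot decide which direction holds.

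**Figure D2:**
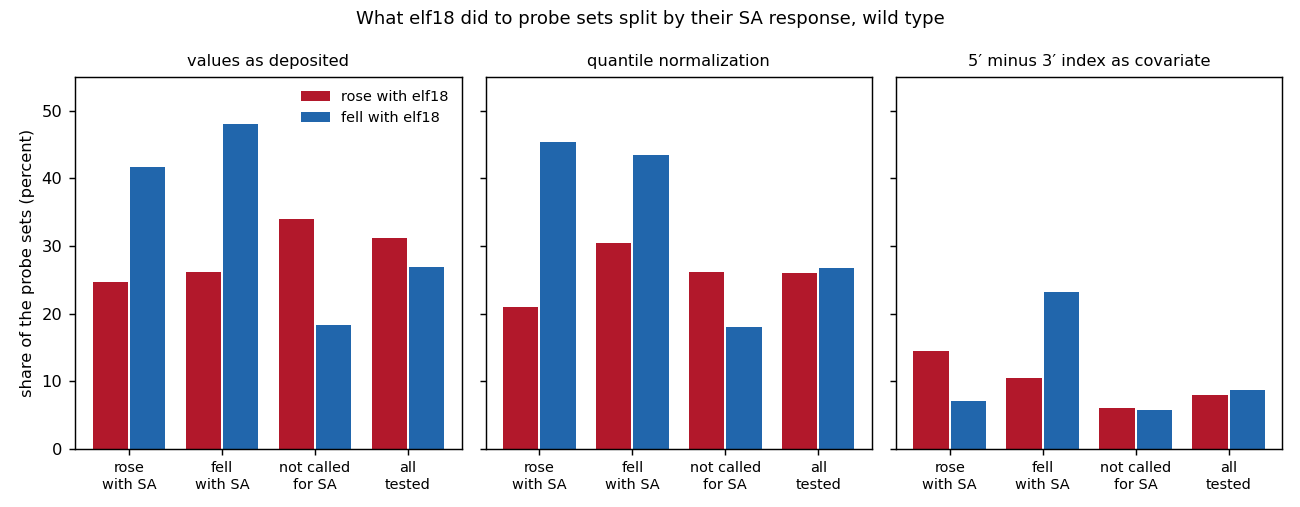
Share (percent) of wild type probe sets that rose (red) or fell (blue) with elf18, split by what SA did to them, in 3 fits. Among probe sets that rose with SA, 24.6% rose and 41.7% fell with elf18 as deposited, 20.9% and 45.3% after quantile normalization, and 14.4% and 7.0% with the 5′ minus 3′ index as a covariate.

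Genes raised by both treatments were few. At 2-fold there were 107 probe sets (0.47% of those tested), with a median change of 1.53 with elf18 and 1.59 with SA, and 62 had 1 gene name. In all 107 the treated arrays lay above their own water arrays, which calls of this size mostly require, so the count adds nothing to the calls. Class members named here were also picked without overlap. The first by size was AT1G78410, which encodes a protein with a VQ motif, the motif that binds WRKY transcription factors. It read 2.57, 2.46 and 2.59 after elf18, against -0.48, -0.84 and -0.66 after water infiltration. It read 0.52, 0.27 and 0.44 after SA, against -2.16, -2.06 and -2.42 after water spray. Treated and water arrays did not overlap in either pair, and the sprayed controls lay below the infiltrated ones. The rise was 3.20 ± 0.15 with elf18 (SE, 9.22-fold, adjusted p = 8.18e-15) and 2.62 ± 0.15 with SA (6.15-fold, adjusted p = 4.36e-13).

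The other 4 named by size were AT5G48570, AT3G47480, AT4G32870 and AT1G72060. AT5G48570 encodes the heat-induced prolyl isomerase ROF2, a folding enzyme, and rose by 2.30 ± 0.19 with elf18 and 2.95 ± 0.19 with SA. AT3G47480, for a calcium-binding EF-hand protein, rose by 2.65 ± 0.12 with elf18 and 2.14 ± 0.12 with SA. AT4G32870 rose by 2.10 and 2.72, and AT1G72060 by 2.37 and 2.06. The difference between the responses was within 0.66 on either side for these 5 genes and was called in 4 of them, AT1G72060 being the exception (adjusted p = 0.0703). Under the index covariate only AT3G47480 kept the call, at 0.88 (adjusted p = 0.0341), and the sign of the difference turned for AT5G48570 (0.18, adjusted p = 0.811). After quantile normalization the difference was not called for AT4G32870 (-0.03, adjusted p = 0.895), and with each array centred on its median not for AT1G78410 (0.52, adjusted p = 0.0529). All 5 stood higher in water-infiltrated than in water-sprayed leaves, by 1.45 to 1.86.

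**Figure D3:**
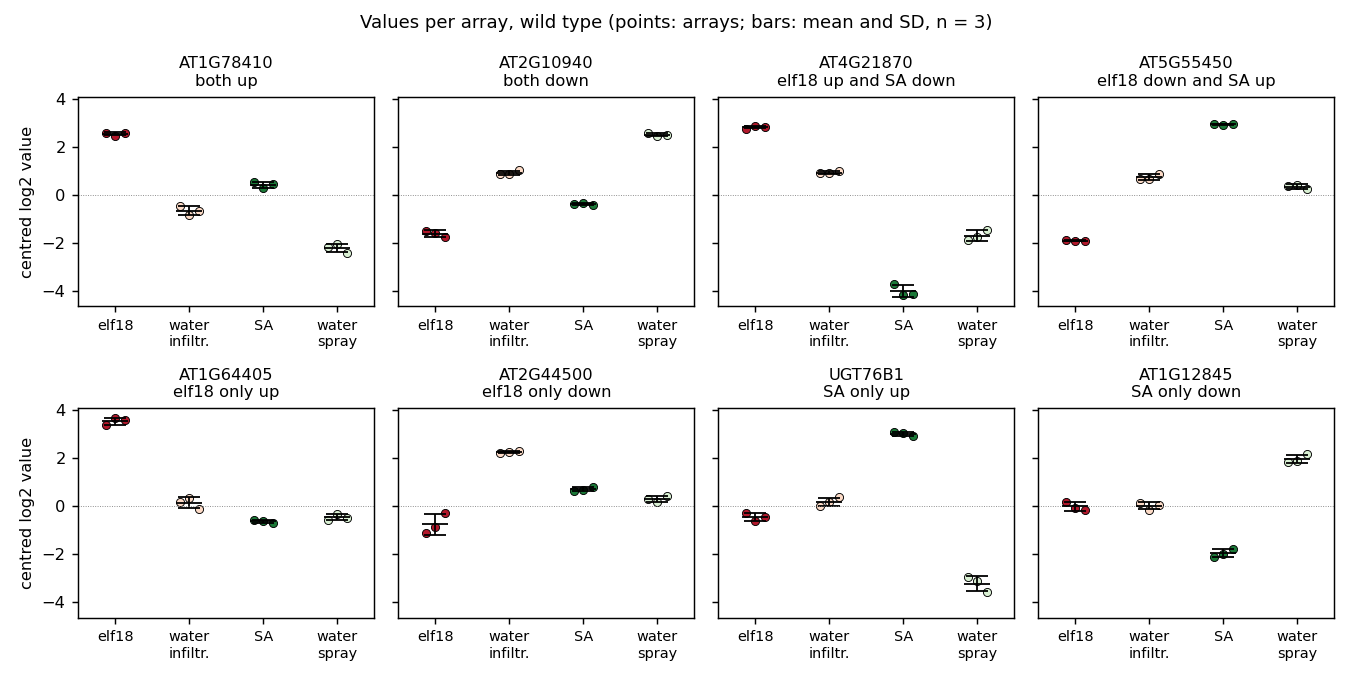
Centred log2 value of each wild type array (points) with mean and SD (n = 3) for the first named gene of each of the 8 response classes, in the groups elf18, water infiltration, SA and water spray. AT4G21870 read 2.76 to 2.87 after elf18 and -4.16 to -3.70 after SA, while UGT76B1 reached 3.10 after SA, against -3.58 to -2.97 after water spray.

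At 2-fold 273 probe sets (1.2%) were lowered by both treatments, with a median of -1.55 with elf18 and -1.31 with SA. In 272 neither treated group overlapped its water group, which again adds nothing to the calls. AT2G10940, of the lipid transfer protein family, read -1.50, -1.58 and -1.77 after elf18, against 0.85, 0.85 and 1.03 after water infiltration. It read -0.37, -0.36 and -0.42 after SA, against 2.58, 2.47 and 2.48 after water spray. No groups of a pair overlapped, and the gene fell by 2.53 ± 0.10 with elf18 (adjusted p = 5.12e-16) and by 2.89 ± 0.10 with SA (adjusted p = 7.68e-17).

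DRT100, a leucine-rich repeat protein, fell by 2.27 with elf18 and by 2.52 with SA. GH9C2, an endoglucanase that cuts cell wall glucans, fell by 2.27 and 3.07, and the subtilase gene AT4G30020 fell by 1.92 and 1.95. The lipase gene AT1G29660 fell further with elf18, by 3.75 ± 0.28, than with SA, by 2.05 ± 0.28. One of its elf18 arrays stood apart from the others, at -1.43 against -3.37 and -3.28, still below every water array. Its difference between the responses was not called with the index as a covariate (-0.43, adjusted p = 0.685). These 5 genes stood lower in water-infiltrated than in water-sprayed leaves, by 1.44 to 2.13 (-2.13 to -1.44).

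At 2-fold 73 probe sets (0.321%) rose with elf18 and fell with SA, 41 with 1 gene name, with a median of -1.29 with SA and of 2.90 for the difference. AT4G21870, for a protein of the small heat shock protein fold, read 2.76, 2.87 and 2.84 after elf18, against 0.90, 0.90 and 1.00 after water infiltration. It read -3.70, -4.16 and -4.12 after SA, against -1.89, -1.75 and -1.44 after water spray. The elf18 arrays were the highest and the SA arrays the lowest, and no groups overlapped. It rose by 1.89 ± 0.12 (adjusted p = 2.47e-12) and fell by 2.30 ± 0.12 (adjusted p = 1.44e-13), a difference of 4.19 ± 0.17 (adjusted p = 2.8e-15).

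SWEET2 (AT3G14770), a glucose transporter of the vacuole membrane, read 1.16, 1.05 and 0.94 after elf18, against -0.94, -0.84 and -0.96 after water infiltration. It read -1.84, -1.82 and -1.99 after SA, against -0.05, -0.09 and 0.05 after water spray. It therefore rose above both water groups with elf18, by 1.96 ± 0.11, and fell below both with SA, by 1.85 ± 0.11. AT3G15680, with RanBP2-type zinc fingers, rose by 2.05 and fell by 1.47, AT5G59080 rose by 1.71 and fell by 1.43, and AT5G14410 rose by 1.40 and fell by 1.63. AT5G59080 had the same level in both controls, which differed by 0.02. The differences of these 5 genes ran from 3.04 to 4.19, and from 2.46 to 3.79 with the index as a covariate, where all 5 were called.

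At 2-fold 210 probe sets (0.923%) fell with elf18 and rose with SA, 79 with 1 gene name, with a median of -1.45 with elf18, of 1.53 with SA and of -3.15 for the difference. AT5G03350, a lectin-like protein whose gene is a known SA target, read -1.70, -1.62 and -1.87 after elf18, against 0.42, 0.29 and 0.35 after water infiltration. It read 2.68, 2.75 and 2.76 after SA, against -0.13, -0.15 and -0.12 after water spray. The 4 groups were well apart, with both water groups between the treated ones. It fell by 2.09 ± 0.12 with elf18 (adjusted p = 4.37e-13) and rose by 2.86 ± 0.12 with SA (adjusted p = 2.94e-15).

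AT5G55450, another lipid transfer protein, read -1.88, -1.91 and -1.94 after elf18, against 0.65, 0.66 and 0.87 after water infiltration. It read 2.97, 2.92 and 2.94 after SA, against 0.37, 0.43 and 0.25 after water spray. It fell by 2.64 ± 0.26 and rose by 2.60 ± 0.26 from controls that differed by 0.38, which was not called. AT1G35710, a leucine-rich repeat receptor kinase, fell by 1.94 and rose by 2.14, while AT2G24160 and AT3G48650 fell by 2.27 and 2.14 and rose by 2.30 and 2.39. The 5 differences ran from -5.23 to -4.09, and from -4.75 to -2.43 with the index as a covariate, where all 5 were called. In that fit the whole class, without a size limit, held 233 probe sets in place of 1436.

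elf18 alone raised 498 probe sets by at least 2-fold (2.19%) and lowered 1009 (4.44%). AT1G64405 read 3.37, 3.67 and 3.58 after elf18, against 0.19, 0.36 and -0.10 after water infiltration. After SA it read -0.59, -0.63 and -0.68, against -0.57, -0.31 and -0.48 after water spray. Only the elf18 arrays stood out, and the rise was 3.39 ± 0.15 (10.5-fold, adjusted p = 2.79e-15) beside a change of -0.18 ± 0.15 with SA (adjusted p = 0.453). The protein kinase gene AT1G28390 rose by 3.25 with elf18, AT5G60630 by 2.98, AT4G15140 by 2.80 and AT3G25130 by 2.60, and their SA changes lay between -0.22 and 0.11.

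Among the genes lowered by elf18 alone, several had been high in the infiltrated controls. AT1G61890, a transporter of the MATE family, read 0.58, 0.26 and 0.06 after elf18, against 3.26, 3.32 and 3.44 after water infiltration. It read -0.65, -0.56 and -0.66 after SA, against -0.15, -0.41 and -0.53 after water spray. Its fall of 3.04 ± 0.14 thus left it above both sprayed groups. AT5G12340 behaved likewise, as it fell by 2.89 with elf18 and stood 5.14 higher in water-infiltrated than in water-sprayed leaves. AT2G32150 fell by 3.09 and AT2G44500, of the O-fucosyltransferase family, by 3.01, and their controls differed by 2.09 and 1.97. AT1G52870, of a peroxisomal membrane protein family, fell by 2.69 and its controls differed the other way, by -0.90.

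SA alone raised 330 probe sets by at least 2-fold (1.45%) and lowered 197 (0.866%). UGT76B1 (AT3G11340), the glucosyltransferase that inactivates SA and isoleucic acid, read 3.10, 3.03 and 2.93 after SA, against -2.97, -3.12 and -3.58 after water spray. After elf18 it read -0.28, -0.63 and -0.45, against 0.03, 0.16 and 0.37 after water infiltration. The elf18 arrays lay just below their controls, but the change of -0.64 ± 0.35 was not called (adjusted p = 0.125). The rise with SA was 6.24 ± 0.35 (75.8-fold, adjusted p = 4.86e-13). These SE come from the spread shared with the tbf1 arrays. Within the wild type groups the SD was 0.17 after elf18, 0.17 after water infiltration, 0.08 after SA and 0.32 after water spray. The missing call therefore does not show that elf18 left UGT76B1 unchanged in wild type.

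AT1G13470 rose by 3.61 with SA, AT4G22530, a methyltransferase family gene, by 3.52, the cytochrome P450 gene CYP71B23 by 3.28 and AT5G24210, of the lipase family, by 3.10. Their elf18 changes lay between -0.56 and 0.24. Among falls, AT1G12845 came first, reading -2.11, -1.97 and -1.78 after SA, against 1.84, 1.88 and 2.17 after water spray. After elf18 it read 0.20, -0.07 and -0.14, which overlapped the 0.12, -0.14 and 0.07 after water infiltration. AT2G43550, a defensin-like gene, fell by 3.63 with SA, AT1G13650 by 3.45, the lipid transfer gene AT1G62510 by 2.99 and the zinc finger gene AT4G17810 by 2.28, with elf18 changes from -0.15 to 0.28.

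The largest differences between the responses reached 4.83 on the high side and -6.88 on the low side. Highest for elf18 were AT5G48490, a lipid transfer protein, at 4.83 ± 0.15 and AT2G28710, a C2H2 zinc finger gene, at 4.70 ± 0.13, followed by AT4G21870 and AT5G01015 at 4.19 each and STOMAGEN, a peptide that promotes stomatal development, at 3.99 ± 0.21. AT2G28710 read 3.99, 4.03 and 3.91 after elf18, against -0.23, -0.37 and -0.37 after water infiltration. It read -1.12, -1.08 and -1.13 after SA, against -0.74, -0.73 and -0.67 after water spray. It rose by 4.30 ± 0.09 with elf18 (19.7-fold, adjusted p = 2.31e-20) and fell by 0.40 with SA, and its controls differed by 0.39.

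AT5G48490 read -0.38, -0.15 and -0.01 after elf18, against -0.62, -0.50 and -0.62 after water infiltration. It read -0.89, -0.86 and -0.97 after SA, against 3.45, 3.55 and 3.59 after water spray. The water-sprayed plants stood apart from all other groups, and the same was true of STOMAGEN, which read 2.91 to 3.12 after water spray and no more than 0.53 in any other wild type array. In these genes the infiltrated controls stood below the sprayed ones by 4.11 and 3.44 (-4.11 and -3.44).

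Lowest were UGT76B1 at -6.88 ± 0.50, AT5G55450 at -5.23 ± 0.37, CHI (AT2G43570), a chitinase family gene, at -5.06 ± 0.31, AT5G03350 at -4.95 ± 0.17 and the receptor kinase gene AT5G59670 at -4.59 ± 0.19. CHI read -0.81, -1.16 and -0.96 after elf18, against 2.21, 2.37 and 2.34 after water infiltration. It read 2.81, 2.97 and 2.84 after SA, against 1.09, 1.17 and 1.02 after water spray. All 10 genes of these extremes kept their call with the index as a covariate, with differences from 3.40 to 4.67 on the high side and from -4.33 to -3.39 on the low side.

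Gene lists were counted per gene, over 13355 named genes, of which 33.8% rose and 21.8% fell with elf18, and 13.2% rose and 15.3% fell with SA. The median named gene stood 0.18 higher with elf18 and was at -0.02 with SA. Under the index covariate 1131 of them rose and 877 fell with elf18, and 1677 rose and 1951 fell with SA. The difference between the responses was called higher for 25.3% of them and lower for 19.9%. Most list members known to the field lacked a probe set with 1 gene name, so the counts describe few members.

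Of 43 genes listed for pattern-triggered immunity 8 were measured, and they were split with elf18. With elf18 3 rose and 3 fell (median -0.08), and with SA 5 rose and none fell (median 0.80), while the difference was called higher in 2 and lower in 5. After quantile normalization none rose and 5 fell with elf18, and 5 rose and 2 fell with SA (median 0.48). With the index as a covariate none was called for elf18 and 6 rose with SA. All 8 genes stood higher in water-infiltrated than in water-sprayed leaves, with a median difference of 3.51. Of all 13355 named genes 1590 were called higher and 2632 lower between these controls, with a median of -0.04.

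WRKY22, a transcription factor that acts downstream of the pattern receptors, read 3.50, 3.55 and 3.39 after elf18, against 2.73, 3.03 and 2.91 after water infiltration. It read -2.48, -2.35 and -2.48 after SA, against -2.11, -2.78 and -2.14 after water spray. Infiltrated leaves of both kinds lay above all sprayed plants, by 5.23 between the controls, and elf18 added 0.59 ± 0.14 (adjusted p = 0.00115). The ubiquitin ligase genes PUB22 and PUB23, whose products dampen pattern responses, stood 5.48 and 5.29 higher in the infiltrated than in the sprayed controls. PUB22 rose by a further 0.76 ± 0.15 with elf18, and PUB23 was at 0.07 ± 0.12 (adjusted p = 0.614).

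WRKY53, a transcription factor of defence and senescence, read 0.31, 0.21 and 0.33 after elf18, against 0.67, 0.49 and 0.71 after water infiltration. It read 0.36, 0.07 and 0.15 after SA, against -2.76, -2.65 and -3.09 after water spray. Treated levels were close together, and the SA rise of 3.03 ± 0.13 started from the lowest group, while elf18 lowered it by 0.34 ± 0.13 (-0.34, adjusted p = 0.0258). The elf18 receptor gene EFR was at -0.23 with elf18, not called, and rose by 0.72 with SA. The receptor-associated kinase gene BIK1 fell by 0.56 and rose by 0.87.

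Of 39 genes of SA synthesis, perception and response 4 were measured. UGT76B1, GRX480 and SAG101 rose with SA, by 6.24, 3.86 and 1.27, and UGT74F1, another SA glucosyltransferase, was at 0.16. GRX480, a glutaredoxin that binds TGA factors, also rose with elf18, by 0.37 ± 0.10 (adjusted p = 0.00428). It read 0.94, 0.92 and 0.86 after elf18, against 0.54, 0.51 and 0.55 after water infiltration. It read 0.49, 0.29 and 0.21 after SA, against -3.52, -3.63 and -3.45 after water spray. Its level after water infiltration was thus already above every SA array. After quantile normalization no member of the list rose with elf18 and 2 fell.

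Of 32 jasmonate genes 4 were measured, and none was called for SA. The defensin gene PDF1.2, a marker of jasmonate and ethylene response, read 2.58, 2.53 and 2.61 after elf18, against 0.65, 0.37 and 0.34 after water infiltration. It read -0.99, -0.92 and -0.89 after SA, against -0.64, -0.57 and -0.66 after water spray. It rose by 2.12 ± 0.13 with elf18 (adjusted p = 1.84e-12) and was at -0.31 ± 0.13 with SA (adjusted p = 0.0789). The transcription factor genes MYC3 and MYC4 and the methyltransferase gene JMT fell by 0.52, 0.43 and 0.98 with elf18. The elf18 and water infiltration arrays overlapped for MYC3 and JMT, but not for MYC4. None of these 3 falls was called with the index as a covariate, although the list median elf18 change was -0.46 there and -0.47 without it.

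Most genes of ER folding and secretion rose with SA and were split with elf18. Of 11 measured, 9 rose and none fell with SA (median 1.28), while 4 rose and 5 fell with elf18 (median -0.17), and the difference was called higher in 2 and lower in 8. ATERDJ3B, a co-chaperone of the ER lumen, read 0.09, -0.04 and -0.02 after elf18, against 0.59, 0.46 and 0.51 after water infiltration. It read 2.58, 2.64 and 2.54 after SA, against 0.25, 0.22 and -0.04 after water spray. The SA arrays stood far above all others, with a rise of 2.44 ± 0.21 (adjusted p = 1.03e-09) beside a fall of 0.51 ± 0.21 with elf18 (adjusted p = 0.0442).

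The calnexin gene AT5G07340 fell by 0.94 and rose by 1.89, and the calreticulin gene CRT1b fell by 0.88 and rose by 1.78. AT3G48570, a subunit of the Sec61 translocon, moved the other way, with a rise of 2.34 ± 0.15 and of 1.94 ± 0.10 with elf18 on its 2 probe sets. With SA these probe sets were at 0.20 and 0.31, of which the second was called. BZIP60, which switches on genes when unfolded proteins build up in the ER, rose by 0.85 with elf18 and by 1.31 with SA. In the fit with the index none of the 5 falls with elf18 was called, 4 genes rose with it, and the difference was called higher in 1 and lower in 6.

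Most ATG8 genes, which encode the ubiquitin-like proteins of autophagosome membranes, rose with elf18. Of 9 measured, 8 rose and 1 fell (median 1.22), while 1 rose and 3 fell with SA (median -0.15), and the difference was called higher in 8 and lower in none. ATG8E read 1.07, 1.46 and 1.45 after elf18, against -0.73, -0.74 and -0.47 after water infiltration. It read -1.46, -1.51 and -1.46 after SA, against -0.92, -0.77 and -0.38 after water spray. The elf18 arrays lay above and the SA arrays below all water arrays, by 1.97 ± 0.15 (adjusted p = 5.36e-11) and -0.79 ± 0.15 (adjusted p = 0.000148).

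ATG8C rose by 1.49 and fell by 0.98, and ATG8B rose by 1.93 and was at 0.04 with SA. ATG8F was the exception, and fell with both, by 0.74 and 0.46. With each array centred on its median the difference was called higher in 7 and lower in 1. With the index as a covariate 4 of the 9 rose and 1 fell with elf18, and the difference was called higher in 5.

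Most nuclear genes of photosynthesis fell with elf18. Of 11 measured, 10 fell and none rose with elf18 (median -1.34), while 4 fell and none rose with SA (median -0.18), and the difference was called higher in 1 and lower in 9. PRK, the Calvin cycle enzyme phosphoribulokinase, read -1.63, -1.59 and -1.54 after elf18, against 0.57, 0.48 and 0.60 after water infiltration. It read 0.75, 0.61 and 0.72 after SA, against 1.06, 1.24 and 1.11 after water spray. Its fall was 2.14 ± 0.10 with elf18 and 0.45 ± 0.10 with SA. PORB, of chlorophyll synthesis, fell by 2.21 and 0.75, and the antenna gene LHCB4.2 fell by 1.60 with elf18 and was at -0.20 with SA. With the index as a covariate 7 fell with elf18 and the difference was called lower in 8.

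Most tubulin genes fell with both treatments. Of 7 measured, all 7 fell with elf18 (median -1.29), and 5 fell and 1 rose with SA (median -1.08). TUB5 fell by 2.84 ± 0.10 with elf18 and by 1.50 ± 0.10 with SA, TUB6 by 2.12 and 1.08, and TUB7 by 0.95 and 1.08. TUA1 fell by 1.29 with elf18 and rose by 0.64 with SA. In the fit with the index 4 of the 7 fell with elf18, and 5 still fell and 1 rose with SA.

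Sugar transporters of the SWEET family and ubiquitin ligases of the PUB and ATL families held single genes that moved in opposite directions. Both lists had more rises than falls with elf18 and more falls than rises with SA, as all named genes did. Of 16 SWEET list members 9 rose and 2 fell with elf18 (median 0.44), and 2 rose and 4 fell with SA (median -0.13). SWEET11 fell by 1.35 and rose by 0.46, the reverse of SWEET2, and SWEET17, a fructose transporter of the vacuole, was at 0.03 with elf18 and fell by 1.90 with SA. Of 13 PUB and ATL genes 8 rose and none fell with elf18, although 5 rose and 3 fell after quantile normalization, and with SA 1 rose and 4 fell. PUB25 and PUB26, ligases that mark BIK1 for degradation, rose by 1.13 and 1.29 with elf18 and fell by 1.08 and 0.85 with SA. PUB24 rose with both, by 0.42 and 2.27. Under the index covariate 2 SWEET genes and 1 ligase gene rose with elf18, and the differences of PUB25 and PUB26 were still called, at 2.54 and 2.34.

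Calmodulin-like genes split within the family. Of 8 measured, 4 rose and 3 fell with elf18 (median 0.44), and 5 rose and 1 fell with SA (median 0.49). CML30 rose by 1.24 and fell by 0.53, while CML41, a sensor at plasmodesmata, fell by 0.90 and rose by 1.06. CML42 rose with both, by 1.86 and 0.56. WRKY transcription factor genes were also split, with 4 rises and 3 falls among 7 with elf18 and 4 rises with SA. WRKY6 rose by 1.06 and 1.13, with a difference of -0.06 ± 0.20 (adjusted p = 0.807), and WRKY20 fell by 1.33 and rose by 0.59. Few of these elf18 changes were called in the fit with the index as a covariate. There no WRKY gene rose and 1 fell, and 1 calmodulin-like gene rose and none fell. The median elf18 change was 0.35 there and 0.34 without the covariate for the WRKY list. For the calmodulin-like list it was 0.19 there and 0.44 without the covariate.

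With elf18 metabolic families had called shares close to those of all named genes (33.8% higher and 21.8% lower). With SA, where 13.2% of all named genes rose and 15.3% fell, their shares of rises lay further from that of all. Counts were small, and nothing is read from them beyond single members. Of 51 UDP-glycosyltransferase genes 16 rose and 10 fell with elf18, and 11 rose and 7 fell with SA. Of 23 cytochrome P450 genes 9 rose and 4 fell with elf18, and 6 rose and 3 fell with SA. Of 22 beta-glucosidase genes 8 rose and 6 fell with elf18, and 1 rose and 3 fell with SA. With the index as a covariate 4 glycosyltransferase genes rose and 1 fell with elf18, 3 P450 genes rose and none fell, and 1 beta-glucosidase gene rose and 4 fell. BGLU44 fell by 4.02 ± 0.13 with elf18 and by 1.19 ± 0.13 with SA, and the peroxidase gene PRXR1 fell by 3.88 and 0.55.

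Of 19 expansin genes 5 rose and 6 fell with elf18 and 1 rose and 7 fell with SA, with EXLA1 at -3.52 and -1.59. Of 10 XTH genes for xyloglucan remodelling 3 rose and 4 fell with elf18, and 4 fell with SA. XTH18 fell by 2.60 with elf18 from infiltrated controls that stood 5.55 above the sprayed ones, and XTH19 fell by 2.85 with controls 3.64 apart. Of 14 glutathione transferase genes 3 rose and 5 fell with elf18, and 2 rose and 2 fell with SA. GSTL3 fell by 2.04 with elf18, and GSTU27 fell by 0.96 with elf18 and rose by 1.08 with SA. Of 7 AUX/IAA genes, repressors of auxin response, 4 rose and 1 fell with elf18, and 2 fell with SA. Of 6 histone genes 4 rose with elf18 and 1 fell with SA, and of 6 peroxidase genes 3 rose and 1 fell with elf18, and 2 rose and 1 fell with SA. In the fit with the index as a covariate no expansin, XTH, AUX/IAA or histone gene rose with elf18. In that fit 1 expansin, 2 XTH and 1 AUX/IAA gene fell with elf18, 1 glutathione transferase gene rose and 3 fell, and 1 peroxidase gene rose and 1 fell.

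**Figure D4:**
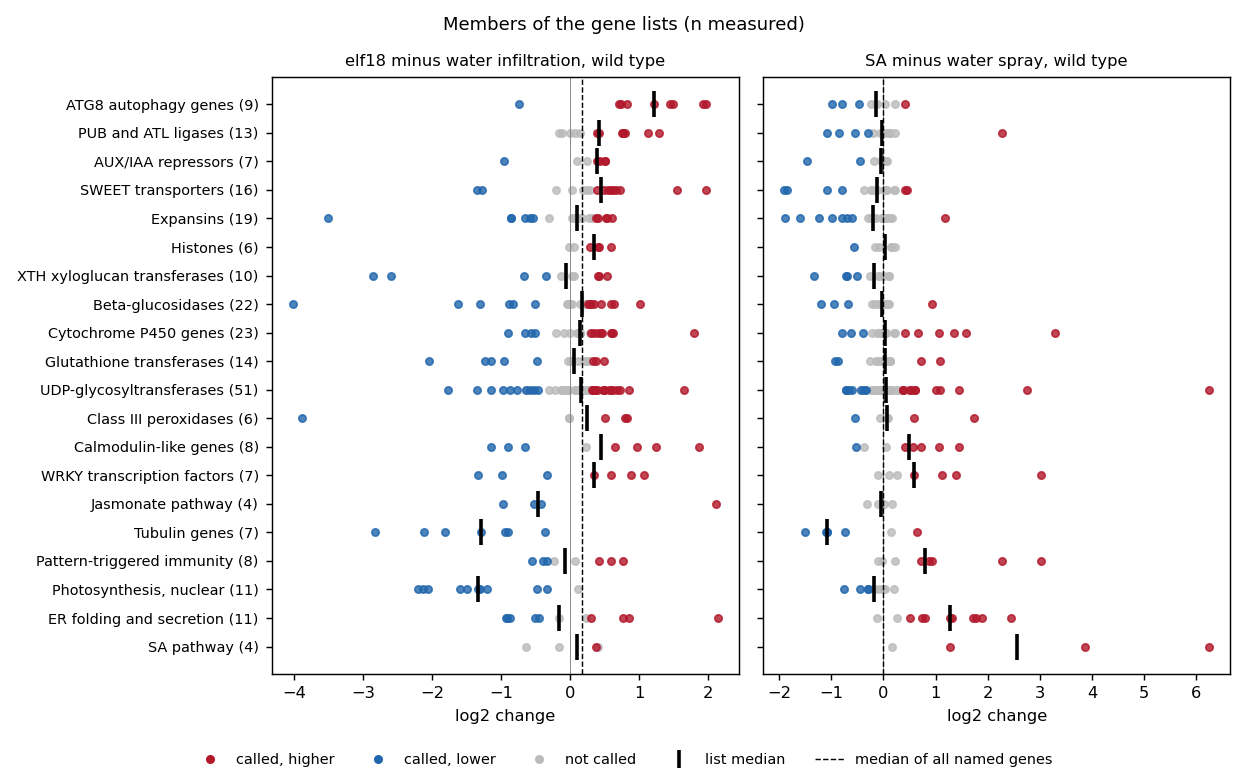
Log2 change of each measured member of 20 gene lists with elf18 (left) and with SA (right) in wild type, as points coloured by call, with the list median as a black bar and the median of all named genes as a dashed line. ATG8 genes have a median of 1.22 with elf18 and -0.15 with SA, while ER folding and secretion genes have -0.17 with elf18 and 1.28 with SA.

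The classes differed in gene length, a property that the sorting did not use. The median genomic length in the TAIR10.1 annotation of RefSeq was 2122 bp over 13367 named nuclear probe sets. At 2-fold it was 1364 bp for the class raised by both, 1404 bp for elf18 only up and 1216 bp for elf18 up and SA down. It was 2454.5 bp for the class lowered by both, 2947 bp for elf18 only down and 2605 bp for elf18 down and SA up. SA only up had 2364 bp and SA only down 1844 bp. Across these probe sets the Spearman correlation of length with the change was -0.342 for elf18 and 0.075 for SA. Among the wild type groups the elf18 arrays were also those with the lowest 5′ minus 3′ index, and the part of that index in the length relation was not tested. Of 69 probe sets of plastid-encoded genes 39 rose and 13 fell with elf18, beside 31.2% and 26.9% of all probe sets. With SA none rose and 28 fell, beside 15.1% and 16.8%.

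The controls themselves differed by route and time. Between water infiltration and water spray 8138 probe sets were called, 35.8%, more than SA moved. These arrays serve as the reference of the responses, so the control difference shares arrays with both, and its values are given side by side only. At 2-fold its median was 1.46 in the class raised by both and -0.94 in the class lowered by both. It was -0.78 in elf18 up and SA down, 0.95 in elf18 down and SA up, 0.18 and -0.30 in elf18 only up and down, and 0.84 and -1.13 in SA only up and down.

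The changes in tbf1, which the sorting did not use, were set beside the classes. The tbf1 arrays did enter the spread per probe set on which the calls of both genotypes rest. A probe set with a small shared spread is more easily called in both, so the shares below are not an independent reading. How far the shared spread raised them was not tested. The mutant is one of TBF1, a transcription factor related to heat shock factors, but no probe set was named for that gene, so its transcript could not be used to check the labels. Of the 107 probe sets raised by both in wild type at 2-fold, 89 (83.2%) were called as raised by both in tbf1, beside 7.39% of all probe sets. For the class lowered by both the share was 48.4%, beside 4.80%, and of the 210 that fell with elf18 and rose with SA 126 were in that class in tbf1, beside 5.56% of all. For elf18 up and SA down it was 27.4%, beside 3.31%. For wild type classes without a size limit the 4 shares were 50.2%, 26.0%, 35.9% and 16.0%, in the same order. The members of these classes were picked for their size in wild type, so smaller values in tbf1 are not by themselves a genotype difference.

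The difference between genotypes was tested as tbf1 minus wild type in the elf18 response minus the SA response. It was called for 4178 probe sets, 18.4%. Over the 8 classes at 2-fold the called share ran from 21.5% (elf18 only down) and 29.3% (both down) to 93.2% (elf18 up and SA down, 68 of 73). This difference contains the wild type values by which the classes and named genes were picked. The shares, and the p-values given below for single genes, are therefore descriptions. In elf18 up and SA down the median SA change was 0.04 in tbf1, against -1.29 in wild type, while the median elf18 change in tbf1 was 1.13. SWEET2 rose with SA in tbf1, by 1.33, and fell by 1.85 in wild type. Its elf18 change was 1.06 in tbf1 and 1.96 in wild type, and its elf18 minus SA response differed between tbf1 and wild type by -4.08 ± 0.22 (adjusted p = 1.78e-11 by limma). PDF1.2 rose by 4.55 with elf18 in tbf1, against 2.12 in wild type, with a genotype difference in the elf18 minus SA response of 1.11 ± 0.27 (adjusted p = 0.00369). In tbf1 the index of RNA quality stood at -0.343 after elf18 and 0.843 after water infiltration, and at -1.53 after SA and -1.67 after water spray, and its part in the genotype differences was not tested.

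**Figure D5:**
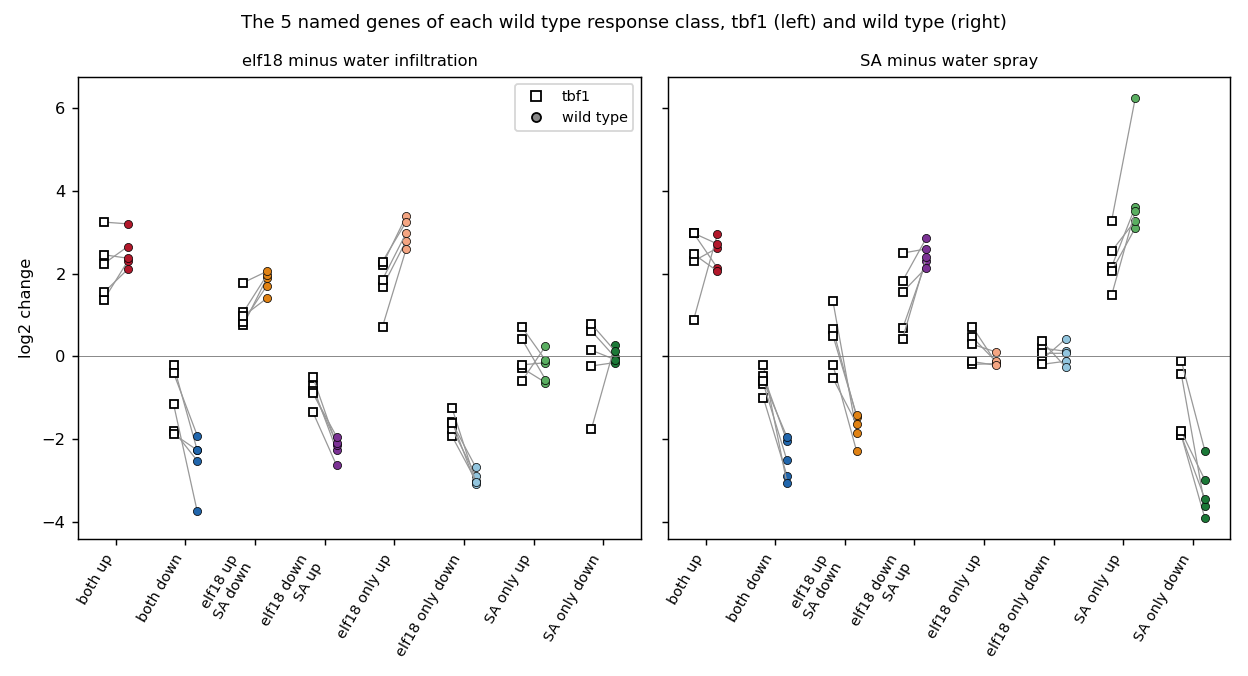
Log2 change with elf18 (left panel) and SA (right panel) of the 5 named genes of each wild type response class, in tbf1 (open squares, left of each pair) and wild type (filled circles, right), with a line joining each gene. SWEET2, in the class elf18 up and SA down, was at 1.33 with SA in tbf1 and -1.85 in wild type.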

How the data were processed

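Values were log2 expression values of 24 ATH1 arrays made with RMA by the authors, per the submitters' processing notes; its version and the log base are not given in the sources used here, and base 2 was assumed from RMA. The deposited log2 table was centred per probe set on its median over the 24 arrays (largest absolute median 5e-07). The scale is thus assumed, the centring is known, and the direction is that of expression. Column medians of the wild type arrays ran from -0.05 to 0.05.

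A limma 3.58.1 fit (R 4.3.3) took all 24 arrays with 8 group means and 16 residual degrees of freedom, leaving out 64 control probe sets. Benjamini-Hochberg adjustment ran over 22746 probe sets. The number of arrays limits the precision. Of 13513 probe sets with 1 gene name, 13436 were updated through RefSeq (TAIR10.1), 503 probe sets had several names and 8730 none. The script was tested on simulated data. Gene lists were counted with plain probe sets preferred over shared classes and the rest averaged; a gene with several was called only if all were. Plastid genes that matched the photosynthesis list by name were removed from it. Lists with fewer than 4 measured genes were not described. Named genes were the 5 largest per 2-fold class without overlap, the 5 highest and lowest differences, and per list up to 2 members with the highest and 2 with the lowest called difference and the member nearest 0; other list members in the text were chosen after their values were seen. The classes, lists and members were chosen with earlier results of these data known. Same-numbered arrays deviated from their group means with correlations of -0.01 to 0.21, not all above 0.1, so numbers were not taken as pairs. Alternatives were other scalings, array weights, a replicate block, the 5′ minus 3′ index as covariate, stricter thresholds and leaving out each array; gene list counts under 3 of them were added after seeing the data. No sequences are printed.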

Additional observations from a re-analysis of the deposited data

Results flagged for a closer look

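The elf18 minus SA difference itself differed between genotypes. As tbf1 minus wild type it was called by limma for 4178 probe sets, and for 14 of the 20 genes named above from the classes moved by both treatments. The values below are that genotype difference on the log2 scale, and members had been picked for their size in wild type.

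Among genes raised by both in wild type it was 1.14 for AT5G48570, -1.25 for AT3G47480 and -0.81 for AT4G32870. Among genes lowered by both it was -1.16 for AT2G10940 and -2.47 for GH9C2. All 5 genes raised by elf18 and lowered by SA had it below 0. They were AT4G21870 at -3.23, SWEET2 at -4.08, AT3G15680 at -2.40, AT5G59080 at -2.79 and AT5G14410 at -1.53. Among genes lowered by elf18 and raised by SA it was 3.17 for AT2G24160, 3.60 for AT3G48650, 2.27 for AT5G03350 and 1.64 for AT1G35710.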

How the results depend on the processing

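With the 5′ minus 3′ index as a covariate the elf18 minus SA difference was called for 5844 probe sets (2673 higher, 3171 lower) and the elf18 response for 3774 (1804 higher, 1970 lower). That fit left 480 raised by both, 839 lowered by both, 378 raised by elf18 and lowered by SA, 233 lowered by elf18 and raised by SA, 903 raised and 840 lowered by elf18 only, and a correlation of 0.235. In it the difference reversed for AT5G48570 (0.18, adjusted p = 0.811) and PUB22 (-0.14, adjusted p = 0.784), and the cause was not tested. Quantile normalization gave a correlation of -0.046. At an adjusted p below 0.01 the difference was higher for 3537 and 1854 rose with elf18 only. A 2-fold minimum left 4798 differences (1746 higher, 3052 lower), 3614 elf18 calls (1196, 2418) and 2023 SA calls (1104, 919), by its construction. Its classes held 107, 273, 73, 210, 498, 1009, 330 and 197, in the order of the report.

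Leaving out each array gave 9770 to 10933 differences, 11271 to 13101 elf18 calls and 6413 to 7449 SA calls. The correlation ran from 0.019 without water spray replicate 2 to 0.083 without water spray replicate 3. Numbers did not pair the arrays, and a replicate block gave 11143 differences, 13370 elf18 calls and 7307 SA calls. Of the 160 counts and correlations recomputed without leaving out arrays, 127 stayed within 1.5 times or 1 SD. Gene list counts, recomputed after seeing the data, moved in 55 of 126 cases with the index, 18 with quantile normalization and 7 with median-centred arrays. A filter on dim probe sets was not run, since centred values hold no level, and signal over background is thus unknown here.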
